A study of Zea mays with 12 samples.

Results

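The leaf response to acid soil of the maize inbred line S1587-17 was described from 6 of the 12 arrays of a series that compares this line with a second one, Cat100-6. The 6 arrays were chosen by line alone and comprise 3 from acid soil and 3 from control soil, and every probe set other than the manufacturer's controls was kept, 17621 in all. Both lines are tropical maize inbreds, and the labels call S1587-17 sensitive and Cat100-6 tolerant to aluminium. Seeds were germinated for 2 days and then grown for 3 days at 26 °C with 16 h of light and 8 h of dark, 20 seeds to a bag that held 1 kg of soil. The acid soil was a Dark Red Latosol at pH 4.1 with 10 mmolc/dm3 of aluminium. The control was the same soil brought to pH 5.5 with 0.8 g of calcium hydroxide per kg, in which no aluminium was detected. Both soils were fertilised and the acid soil received calcium chloride, so pH, aluminium and the form of added calcium differed together and their parts cannot be told apart. The labels number 3 biological replicates in each group and do not say whether they came from separate bags, so a p-value here speaks only of the scatter of these arrays, which may be partly technical. Each value is a log2 expression level after RMA, which corrects background, normalizes the arrays to each other and combines the short probes of a set into 1 value. A difference of 1 log2 unit is a doubling.

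Aluminium becomes soluble in acid soil as a cation that blocks root tip growth within hours, and sensitive maize lines lose root elongation sooner than tolerant ones, which exude citrate from the root tip. Leaves are not in contact with the soil and are reached through water supply, nutrients, hormones and carbon demand. Acid soils also limit the uptake of phosphate, calcium and magnesium and change the balance of nitrate and ammonium. Leaf genes of nitrate reduction follow the nitrate that arrives from the root, while benzoxazinoids, defence compounds derived from indole, are abundant in maize seedlings.

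The 6 arrays carried the transcripts of green leaf at high level. The 12 probe sets of photosystem and light-harvesting proteins had a median of 13.54, 13.56 and 13.83 on control arrays 1, 2 and 3 and of 13.64, 13.65 and 13.57 on acid arrays 1, 2 and 3. The 19 probe sets of seed storage and oil-body proteins lay at medians of 3.36 to 3.59, and zrp4, a root-preferential methyltransferase, lay between 5.36 and 6.07 on the 6 arrays. In whole leaves, fewer cells of a type and less RNA per cell cannot be told apart.

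One array of the control group stood apart. Among the other 5 arrays of S1587-17 the correlation across probe sets was 0.995 to 0.997, whatever the soil. Control soil replicate 3 correlated with these 5 at 0.963 to 0.972. It correlated with the Cat100-6 control arrays at 0.950 to 0.953, against 0.902 to 0.919 for the other 5. The median standard deviation over probe sets was 0.227 among the 3 control arrays, 0.108 between control replicates 1 and 2, and 0.0964 among the 3 acid arrays.

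The deviation of this array was largest in genes of dividing cells. The 18 probe sets of DNA replication and cyclins had medians of 7.35 and 7.77 on control arrays 1 and 2, 5.07 on control array 3, and 7.36, 7.55 and 7.55 on the acid arrays. Of these 18, 12 were at least 1 log2 unit below the mean of replicates 1 and 2, and over all probe sets 6.42% were. The 6 named genes with the lowest relative level on that array were nfd101 and nfd106, chromatin proteins of the high-mobility group, the cyclin cyc3, the helicase subunit MCM7 that unwinds DNA for replication, the benzoxazinoid glucosidase glu1 and the DNA methyltransferase met5. The level of nfd101 was 11.76 and 11.78 on control arrays 1 and 2 and 7.26 on array 3, and that of cyc3 was 7.62, 7.86 and 3.26. MCM7 gave 7.74, 8.20 and 3.82, nfd106 gave 9.23, 9.64 and 5.27, glu1 gave 9.79, 10.59 and 6.04, and met5 gave 8.13, 8.48 and 4.51. In each of these 6 genes control array 3 was the lowest of the 6 arrays by over 3 log2 units. On the acid arrays cyc3 was 7.44, 7.68 and 7.86 and nfd106 was 9.24, 9.47 and 9.66.

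**Figure D1:**
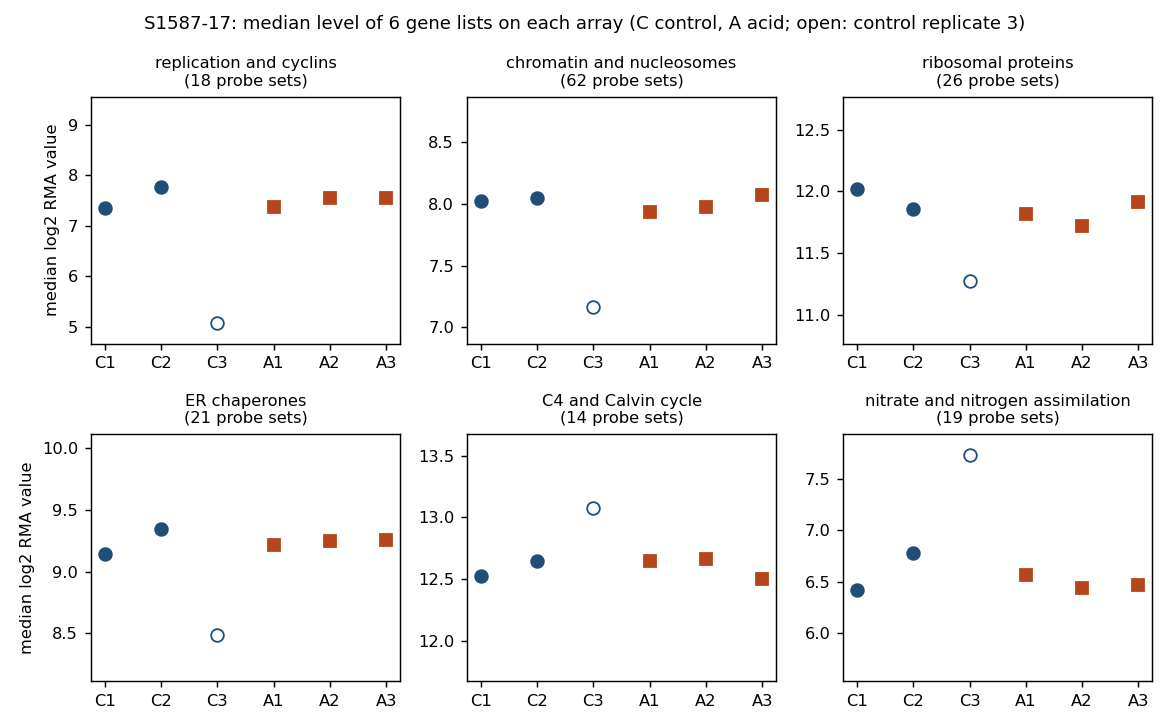
Median log2 RMA level (vertical axis) of 6 gene lists on each S1587-17 array, control soil in blue circles (C1 to C3) and acid soil in red squares (A1 to A3), with control replicate 3 drawn open. Replication and cyclin probe sets have a median of 5.07 on C3 against 7.35 to 7.77 on the other 5 arrays, while the nitrate list has 7.74 on C3 against 6.42 to 6.78 on the others.

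Over all probe sets 2.49% were at least 1 log2 unit above the mean of replicates 1 and 2 on this array. The highest 6 named genes were ys1, the transporter for iron bound to phytosiderophores, GT1, the plasma membrane proton pump mha1, the chitinase chn1, the ribosome-inactivating protein rip2 and the pathogenesis-related protein pr5. The level of ys1 was 5.59, 7.75 and 9.64 on control arrays 1, 2 and 3 and 6.71, 5.61 and 6.78 on the acid arrays, so it also varied between replicates 1 and 2. The chitinase chn1 gave 5.52 and 5.26 on arrays 1 and 2 and 7.09 on array 3, and pr5 gave 7.79, 8.11 and 9.58. The pump mha1 gave 5.87, 6.35 and 7.83, rip2 gave 6.90, 6.69 and 8.48, and GT1 gave 6.63, 8.20 and 9.17. Transcripts of carbon fixation were higher on array 3 too. The bundle sheath malic enzyme me3 was at 11.81, 12.24 and 13.15 on control arrays 1, 2 and 3, and the Rubisco activase rca1 was at 10.62, 11.13 and 12.17.

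The deviation of this array had the pattern of the soil difference of the other line. Across the 17621 probe sets, control replicate 3 minus the mean of replicates 1 and 2 correlated at 0.819 with control minus acid soil in Cat100-6, with a slope of 0.640, and the 2 quantities share no array. Replicate 1 minus replicate 2 correlated with the same quantity at 0.133. Of the 1131 probe sets at least 1 log2 unit low on control replicate 3, 975 (86.2%) were higher in acid than in control soil in Cat100-6 by limma's moderated test at an adjusted p under 0.05, and 3 (0.265%) were lower. Of the 438 at least 1 log2 unit high, 305 (69.6%) were lower in acid soil in Cat100-6 and 4 (0.913%) were higher. Over all probe sets, 23.5% were higher and 31.5% were lower in Cat100-6 acid soil.

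**Figure D2:**
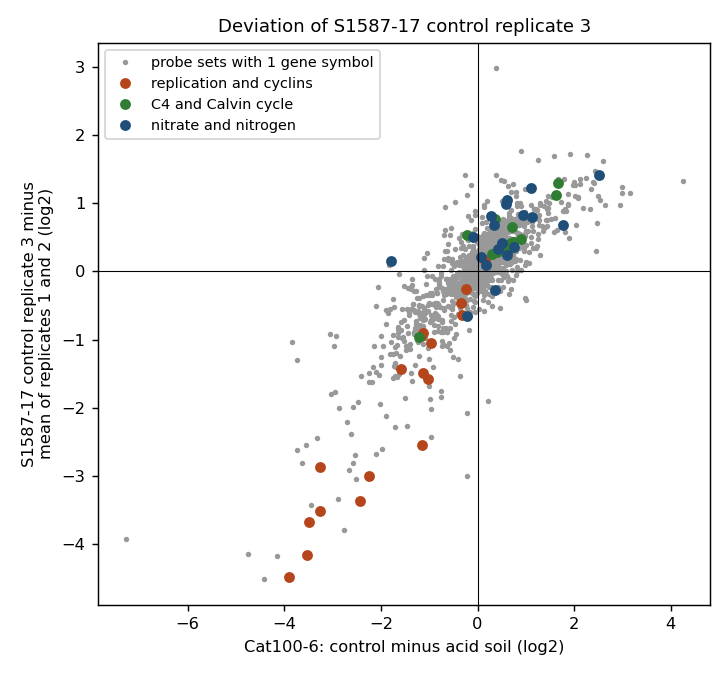
Deviation of S1587-17 control replicate 3 from the mean of replicates 1 and 2 (vertical axis, log2) against control minus acid soil in Cat100-6 (horizontal axis, log2). Each point is 1 probe set with exactly 1 gene symbol that is a readable name and not only a locus number. Replication and cyclin genes (red) lie at the lower left in 17 of 18 probe sets, with deviations down to -4.48 (cyc3), and most nitrate (blue) and carbon fixation (green) probe sets lie at the upper right.

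At the probe sets that separate the lines, control replicate 3 had medians nearer those of S1587-17 than those of Cat100-6. On the acid arrays 71 probe sets were at least 3 log2 units higher in Cat100-6, and the control arrays, which this choice did not use, gave medians of 4.26, 4.35 and 4.31 for S1587-17 replicates 1, 2 and 3 and 8.35 to 8.49 for Cat100-6. A further 82 probe sets were at least 3 log2 units lower in Cat100-6. Their medians were 8.24, 8.28 and 8.06 on the S1587-17 control arrays and 4.12 to 4.16 on those of Cat100-6. Control replicate 3 lay nearer the S1587-17 acid mean than the Cat100-6 control mean at 69 of the 71 and 74 of the 82. These counts were 71 and 80 for control replicate 1 and 71 and 79 for control replicate 2. In 5 control genes probed at both ends, the 3′ end exceeded the 5′ end, a measure that RNA quality can change. The excess was 0.985, 0.724 and 0.715 log2 units on control arrays 1, 2 and 3. On acid arrays 1, 2 and 3 it was 0.843, 0.621 and 0.674. What set this array apart was not tested, and the counts, list medians and main genes below are given with it and without it.

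No probe set passed the test of a soil difference in S1587-17 when all arrays were used. In a limma fit of all 12 arrays, 0 of 17621 probe sets passed an adjusted p of 0.05 (0%), and the lowest adjusted p was 0.401. At an unadjusted p under 0.05 there were 613 probe sets (3.48%), of which 235 (1.33%) were higher and 378 (2.15%) lower in acid soil. The 3 acid arrays lay wholly above or wholly below the 3 control arrays in 1350 probe sets (7.66%), 526 (2.99%) above and 824 (4.68%) below. A difference of at least 1 log2 unit was seen in 113 (0.641%).

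Without control replicate 3, 1 probe set passed (0.00568%), and 0 did when the fit also had the replicate number as a block or held only the S1587-17 arrays. The number at an unadjusted p under 0.05 was then 501 (2.84%), with 298 (1.69%) higher and 203 (1.15%) lower, so the larger side turned from lower to higher. The number with a difference of at least 1 log2 unit fell from 113 to 17 (0.0965%). Arrays of the 2 soils were apart in 3567 probe sets (20.2%), 1992 (11.3%) higher and 1575 (8.94%) lower. With 3 arrays against 2, fewer orderings are possible, so this share is not comparable with that of all arrays.

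The probe set that rose is Zm.2331.1.S1_x_at, which has no gene name in the annotation used. Its levels were 7.77, 7.96 and 8.45 on control arrays 1, 2 and 3 and 8.95, 9.18 and 9.08 on the acid arrays, so that every acid array lay above every control array. The difference was 1.20 log2 units without control replicate 3 (limma, adjusted p = 0.0130) and 1.01 with it (adjusted p = 0.401). A second unnamed probe set, Zm.14687.1.S1_s_at, was at 6.77, 6.90 and 7.38 in control soil and at 8.15, 8.69 and 8.58 in acid soil. It differed by 1.46 log2 units with all arrays (limma, adjusted p = 0.401) and by 1.64 without control replicate 3 (adjusted p = 0.0520). In Cat100-6 its difference was -1.48, and the responses differed by 2.94 ± 0.31 with all arrays (limma, adjusted p = 0.000565).

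All genes named from here on failed the adjusted test in S1587-17 with and without control replicate 3, so their values are given as levels and differences and not as changes. Of the genes below, NNR1, NR, nar, gs2, gln2, gln3, gln5, gst1, hsp18c and hsp101 were chosen after their values were seen. The 10 named genes with the lowest p with all arrays were sum1, tip2b, Hb2, pdh2, bx1, gst5, NIR, AGA2, hsp18f and phytase1. Their lowest adjusted p was 0.646 (limma, sum1) and all others were 0.874. They were chosen for a low p on these arrays, so that the separation of their arrays, seen in 7.66% of all probe sets, is a description only.

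Of these 10, NIR, sum1 and Hb2 are linked to nitrate reduction, and they are described with the nitrate reductases, some of which overlapped between soils. Nitrate reductase turns nitrate into nitrite, and its gene NNR1 was at 7.89, 8.20 and 9.45 on control arrays 1, 2 and 3 and at 7.28, 7.40 and 7.19 on the acid arrays. All acid arrays lay below all control arrays, and control replicate 3 was the highest of the 6. The difference was -1.23 ± 0.40 log2 units with all arrays (standard error, n = 3 and 3) and -0.76 ± 0.32 without control replicate 3 (n = 3 and 2). The 2 probe sets of a further nitrate reductase entry, nar, overlapped between soils and differed by -0.11 and 0.01 with all arrays. Nitrite reductase, NIR, which turns nitrite into ammonium in the plastid, was at 7.32, 7.42 and 8.35 in control soil and at 6.97, 7.08 and 6.81 in acid soil. Again no acid array reached the lowest control array. The difference of NIR was -0.74 ± 0.22 and, without control replicate 3, -0.42 ± 0.11. A second probe set of NIR gave -0.11 and overlapped between soils.

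The gene sum1 encodes the methyltransferase that starts the branch to sirohaem, the cofactor of nitrite reductase. Its level was 6.55, 6.45 and 6.97 in control soil and 5.55, 6.06 and 5.94 in acid soil, so the acid arrays lay below the control arrays without overlap. The difference was -0.81 ± 0.16 with all arrays and -0.65 ± 0.14 without control replicate 3. The haemoglobin Hb2, a non-symbiotic haem protein of the class that scavenges nitric oxide, was at 7.24, 7.34 and 7.97 in control soil and at 6.61, 6.67 and 6.84 in acid soil. Its 3 acid arrays were again the lowest. The difference was -0.81 ± 0.18 and -0.58 ± 0.14 without control replicate 3.

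Of the 19 probe sets of nitrate and nitrogen assimilation, 5 had an unadjusted p under 0.05 and were lower in acid soil with all arrays, and none was higher, where the shares over all probe sets were 2.15% and 1.33%. They were those of NNR1, NIR and Hb2 and 2 of the gene NR. Both NR probe sets were dim, between 2.03 and 4.00, and 1 of them overlapped between soils. Without control replicate 3 there were also 5, with gln5 in place of 1 NR probe set. The glutamine synthetase gln5 was at 9.98, 9.58 and 9.12 in control soil and at 9.28, 9.39 and 9.18 in acid soil, so its groups overlapped. The plastid glutamine synthetase gs2, which captures the ammonium made by NIR, was at 11.28, 11.41 and 12.16 in control soil and at 11.48, 11.66 and 11.49 in acid soil, and its difference was -0.07 with all arrays and 0.20 ± 0.19 without control replicate 3, so the direction turned. Without that array, gs2, gln2 and gln3, all glutamine synthetases, had acid arrays wholly above the control arrays, and gln2 and gln3 differed by 0.36 and 0.09. The probe sets apart and lower were then 5 of the 19 and those apart and higher 3, against 8.94% and 11.3% over all probe sets. The median over the 19 probe sets was -0.20, and -0.09 without control replicate 3, against -0.02 and 0.00 over all probe sets tested. Control replicate 3 was 0.51 log2 units above replicates 1 and 2 in the median of this list.

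**Figure D3:**
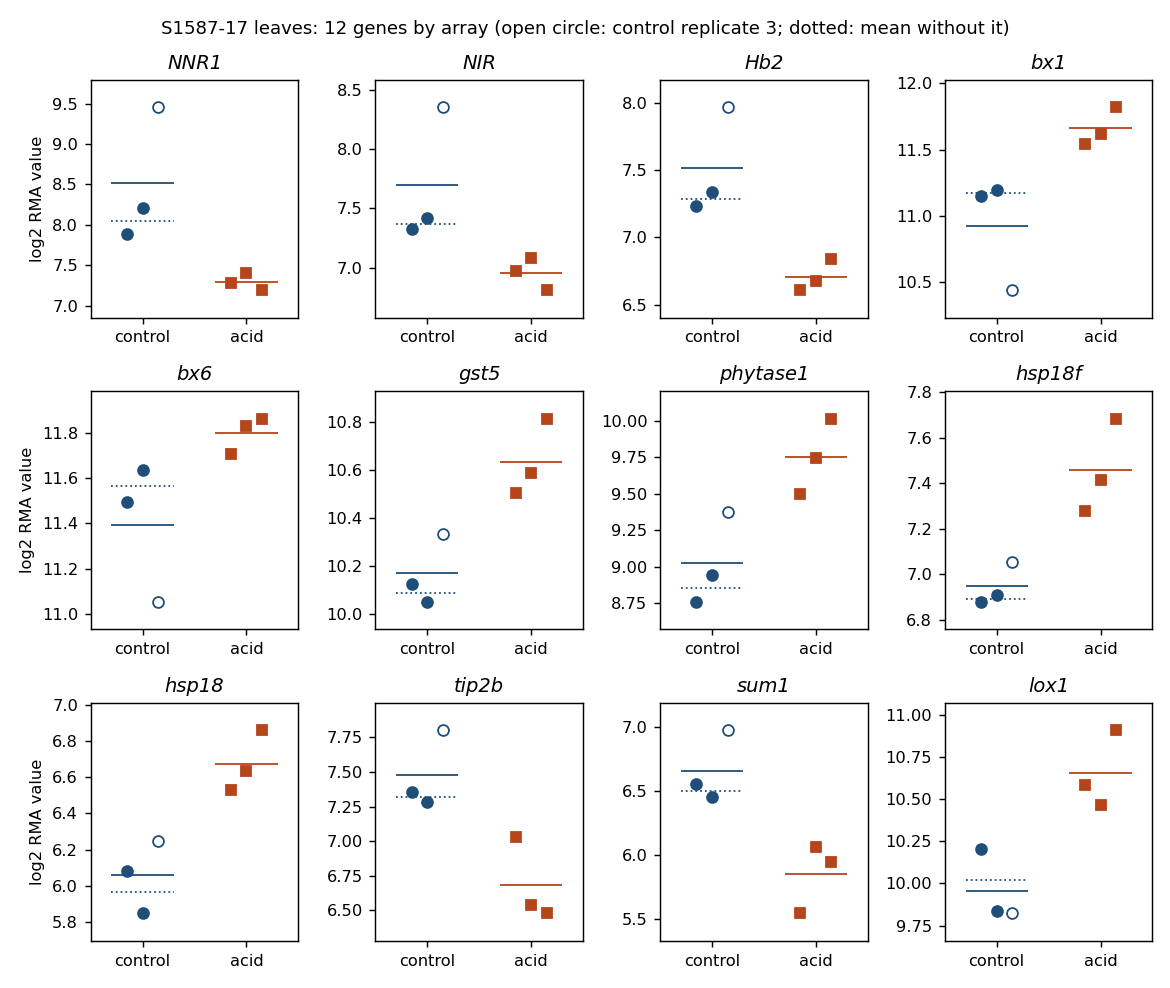
Levels of 12 genes (vertical axes, log2 RMA value) on the S1587-17 arrays, control soil as blue circles and acid soil as red squares, with control replicate 3 open, solid lines for group means and a dotted line for the control mean without replicate 3. The genes were chosen for low p or after their values were seen, so the separation of the soils in all 12, found in 7.66% of all probe sets, is a description. In NNR1, NIR, Hb2, bx1, bx6, tip2b and sum1 control replicate 3 lies farther from the acid arrays than its group-mates do. The same holds by little in lox1.

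The benzoxazinoid synthesis genes bx1 and bx6 had higher levels in acid soil. The gene bx1 encodes the lyase that releases indole for the pathway, and its level was 11.15, 11.19 and 10.44 on control arrays 1, 2 and 3 and 11.54, 11.62 and 11.82 on the acid arrays. The acid arrays were the 3 highest and control replicate 3 the lowest. The difference was 0.73 ± 0.17, a fold of 1.66, and 0.49 ± 0.11 or 1.40-fold without control replicate 3. The dioxygenase bx6, which adds an oxygen to the ring system late in the pathway, was at 11.49, 11.64 and 11.05 in control soil and at 11.71, 11.83 and 11.86 in acid soil. Its differences were 0.41 ± 0.15 and 0.23 ± 0.13, without overlap in either case. The glucosidase glu1, which frees the active compound from its stored glucoside, was at 9.62, 9.77 and 9.88 in acid soil, within the range of 6.04 to 10.59 of the control arrays. Of the 8 probe sets of this list, 3 had an unadjusted p under 0.05 and were higher, those of bx1 and 2 of bx6, and without control replicate 3 there was 1, that of bx1. Over all probe sets 1.33% and 1.69% were higher at that p. The median of the list was 0.23, and 0.13 without that array.

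Among enzymes that conjugate glutathione to foreign or oxidised compounds, gst5 was at 10.12, 10.05 and 10.34 in control soil and at 10.50, 10.59 and 10.81 in acid soil. The groups did not overlap, and the difference of 0.47 ± 0.12 was larger without control replicate 3, at 0.55 ± 0.12 or 1.46-fold. The abundant gst1 was at 13.02, 12.93 and 13.12 in control soil and at 13.19, 13.26 and 13.23 in acid soil, a difference of 0.20 ± 0.09 and of 0.25 ± 0.10 without control replicate 3. The levels of gst11 were 9.19, 9.99 and 9.08 in control soil and 9.82, 10.12 and 9.90 in acid soil, and the groups overlapped. Of the 35 glutathione transferase probe sets 3 had an unadjusted p under 0.05 and were higher, and none was lower, against 1.33% and 2.15% over all probe sets. Without control replicate 3 the counts were 4 and 0, against 1.69% and 1.15%, and the median of the list was 0.10 with that array and 0.06 without it.

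The gene phytase1, whose enzyme releases phosphate from phytate, had levels of 8.76, 8.94 and 9.38 in control soil and of 9.50, 9.75 and 10.02 in acid soil. Every acid array lay above every control array. The difference was 0.73 ± 0.24 or 1.66-fold, and 0.90 ± 0.24 or 1.87-fold without control replicate 3. The phosphate transporter pht1 was at 7.27, 7.68 and 8.37 in control soil and at 7.45, 7.56 and 7.39 in acid soil, and the third phosphate gene, pht7, also overlapped. Of the genes known for aluminium tolerance, 1 was matched by name, asr1, which encodes a small protein induced by abscisic acid and stress. The 16168 probe sets without a gene symbol could not be searched for others. Its brighter probe set was at 12.93, 12.74 and 12.90 in control soil and at 13.05, 13.06 and 13.11 in acid soil. The groups were apart by little, with a difference of 0.22 ± 0.11, or 0.24 ± 0.12 without control replicate 3, and the second probe set of asr1 overlapped and gave -0.09.

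Small heat shock proteins hold unfolded proteins in solution. The level of hsp18f was 6.88, 6.91 and 7.05 in control soil and 7.28, 7.41 and 7.68 in acid soil, and that of hsp18 was 6.09, 5.85 and 6.25 in control soil and 6.53, 6.64 and 6.86 in acid soil. Neither overlapped between soils, and control replicate 3 was the control array nearest the acid arrays in both. Their differences were 0.51 ± 0.16 and 0.61 ± 0.27, and 0.57 ± 0.18 and 0.71 ± 0.30 without control replicate 3. These were the 2 of 14 heat shock probe sets with an unadjusted p under 0.05 with all arrays, both higher, against 1.33% higher over all probe sets. The brighter probe set of hsp18c, at 7.29, 7.46 and 7.31 in control soil and at 7.61, 7.55 and 7.58 in acid soil, was also apart, and its dimmer probe set overlapped. The disaggregase hsp101 joined them without control replicate 3, with 8.66 and 8.67 on control arrays 1 and 2 and 9.02, 9.05 and 9.10 on the acid arrays, but control replicate 3, at 9.08, lay among the acid arrays. The median over the 14 was 0.24, and 0.04 without control replicate 3.

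The tonoplast water channel tip2b was at 7.35, 7.28 and 7.80 in control soil and at 7.03, 6.54 and 6.48 in acid soil. The acid arrays were the 3 lowest, and the difference was -0.80 ± 0.18, or -0.64 ± 0.17 without control replicate 3. It was the only member of 20 tonoplast, NIP and SIP aquaporin probe sets with an unadjusted p under 0.05 in either fit. None of 16 plasma membrane aquaporin probe sets had one. Over all probe sets the share was 3.48%, and 2.84% without control replicate 3. The plasma membrane channel of lowest p, pip2-5, was at 8.68, 8.82 and 9.77 in control soil and at 8.69, 8.71 and 8.54 in acid soil, and overlapped. Among the remaining genes of lowest p, pdh2, a subunit of pyruvate dehydrogenase, was at 10.35, 10.53 and 10.60 in control soil and at 10.12, 10.12 and 10.08 in acid soil. AGA2, an alkaline alpha-galactosidase that breaks down raffinose sugars, was at 8.45, 8.28 and 9.17 in control soil and at 8.08, 8.04 and 7.71 in acid soil. The acid arrays were the lowest in both genes, with differences of -0.39 ± 0.09 for pdh2 and -0.69 ± 0.21 for AGA2, and of -0.33 ± 0.09 and -0.43 ± 0.15 without control replicate 3.

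Among genes of stress hormones, lox1 and dhn2 had higher levels in acid soil. The lipoxygenase lox1, an enzyme of oxylipin synthesis, was at 10.20, 9.84 and 9.82 in control soil and at 10.59, 10.47 and 10.91 in acid soil. The groups did not overlap, and the difference was 0.70 ± 0.27, or 0.63 ± 0.30 without control replicate 3. The dehydrin dhn2, a protective protein of drying cells, was at 10.29, 10.40 and 10.20 in control soil and at 10.52, 10.68 and 10.66 in acid soil, again without overlap. Its differences were 0.33 ± 0.15 and 0.28 ± 0.17. Of the 12 probe sets of abscisic acid genes 4 were apart and higher in acid soil, 3 of dhn2 and 1 of asr1, and none was apart and lower, against 2.99% and 4.68% over all probe sets. An unadjusted p under 0.05 was found for 2 of them, both of dhn2 and higher, against 1.33%. Without control replicate 3 that number was 1, against 1.69%. Of 15 probe sets of jasmonate and ethylene genes the 2 of lox1 had an unadjusted p under 0.05 with all arrays and none had one without control replicate 3, against 3.48% and 2.84% over all probe sets. The ethylene-forming oxidase acco20 was at 6.85, 6.98 and 8.21 in control soil and at 7.04, 6.93 and 6.73 in acid soil.

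In the remaining lists no probe set passed the adjusted test. Of the 34 for sucrose and starch, 1 had an unadjusted p under 0.05 and was higher and 2 were lower, against 1.33% and 2.15% over all probe sets. The lower ones were AGA2 and sps1, the latter named after its values were seen. The sucrose phosphate synthase sps1 was at 7.39, 7.59 and 8.81 in control soil and at 7.29, 7.07 and 6.18 in acid soil, so control replicate 3 and acid replicate 3 were its extremes. Its difference was -1.08 with all arrays and -0.64 without control replicate 3. Of the 23 antioxidant probe sets, 2 were higher and 1 was lower at that p, against the same shares. Without control replicate 3 there were 0 and 0, against 1.69% and 1.15% over all probe sets. The superoxide dismutase sod3 was at 11.33, 11.33 and 11.26 in control soil and at 11.43, 11.51 and 11.57 in acid soil, apart by a difference of 0.19 ± 0.08, or 0.17 ± 0.09 without control replicate 3. The peroxidase PER66 was at 4.89, 4.89 and 5.87 in control soil and at 4.83, 4.33 and 4.63 in acid soil, -0.62 ± 0.24 with all arrays and -0.29 ± 0.16 without control replicate 3. Of the 27 growth hormone probe sets, 1 was higher and 3 were lower at an unadjusted p under 0.05, against 1.33% and 2.15%. Without control replicate 3 there were 0 and 0. Cytokinin response regulator RR7 was at 7.69, 7.76 and 8.65 in control soil and at 7.45, 7.43 and 7.39 in acid soil. Its acid arrays were the lowest, and its difference of -0.61 ± 0.23 was -0.30 ± 0.15 without control replicate 3. The deoxymugineic acid synthase gene AR6, of iron acquisition, was at 8.20, 8.21 and 7.95 in control soil and at 8.28, 8.48 and 8.50 in acid soil. The tubulin tub3 was at 10.74, 10.53 and 10.94 in control soil and at 10.53, 10.20 and 9.96 in acid soil, and its groups touched. Flavanone hydroxylase fht1, of flavonoid synthesis, was at 10.59, 10.46 and 11.23 in control soil and at 10.38, 10.14 and 10.05 in acid soil, with a difference of -0.57 ± 0.40, or -0.34 ± 0.42 without control replicate 3.

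Where a gene list had its largest median differences with all arrays, they were small without control replicate 3. The median of the 18 replication and cyclin probe sets was 0.43, with 18 of 18 above zero, and it was -0.06 with 4 of 18 above zero without that array. Over all 17621 probe sets, 8059 were above zero with all arrays and 8944 without that array. None of the 18 had an unadjusted p under 0.05 in either fit. The 62 chromatin probe sets went from 0.15 to 0.01, the 21 ER chaperone probe sets from 0.20 to -0.05, and the 26 ribosomal protein probe sets from 0.13 to -0.06. Without control replicate 3, 9 of these 26 were apart and lower in acid soil and 0 were apart and higher. The shares over all probe sets were 8.94% and 11.3%. The calreticulin crt2 was at 11.84, 12.24 and 11.10 in control soil and at 12.02, 12.24 and 12.03 in acid soil, and the disulphide isomerase pdi was at 10.07, 10.48 and 8.49 and at 10.21, 10.37 and 10.35. In both genes the acid arrays lay within the range of the control arrays or matched its top. In the 16 tubulin probe sets the median was 0.01 with all arrays and -0.14 without control replicate 3, where 7 were apart and lower in acid soil against 8.94% over all probe sets.

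None of the photosynthesis probe sets had an unadjusted p under 0.05 with all arrays. The 14 probe sets of C4 and Calvin cycle enzymes had a median of -0.23, which was -0.06 without control replicate 3, and the 12 photosystem probe sets had -0.03 and 0.03. The carboxylase pep1, which fixes carbon first in the mesophyll, was at 13.56, 13.71 and 13.99 in control soil and at 13.58, 13.61 and 13.27 in acid soil. The malic enzyme me3, which releases it again in the bundle sheath, was at 12.02, 12.11 and 11.77 in acid soil, and overlapped with its control levels given above. The 3 bundle sheath probe sets moved from a median of -0.29 to 0.06 without control replicate 3. The 27 growth hormone probe sets had a median of -0.18, and of -0.06 without that array.

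With all arrays and then without control replicate 3, they were -0.10 and 0.00 for the 37 lignin and cell wall probe sets, -0.09 and 0.03 for the 8 of pathogenesis proteins, and -0.22 and 0.01 for the 5 of flavonoids. The 23 antioxidant probe sets had 0.00 and 0.02, the 34 of sucrose and starch 0.04 and 0.05, the 10 of iron 0.05 and 0.04, and the 5 potassium channel probe sets -0.12 and -0.01. For aquaporins the medians were -0.10 and -0.01 in the 16 of the plasma membrane and -0.08 and -0.02 in the 20 others. The 15 jasmonate and ethylene probe sets had 0.05 and 0.08 and the 12 of abscisic acid 0.04 and 0.14, the largest upward median without control replicate 3 among lists of at least 5. In that list 11 of 12 probe sets were above zero without control replicate 3 and 7 of 12 with it. Over all 17621 probe sets these numbers were 8944 and 8059. The 12 probe sets stand for 6 genes, so they are not independent.

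**Figure D4:**
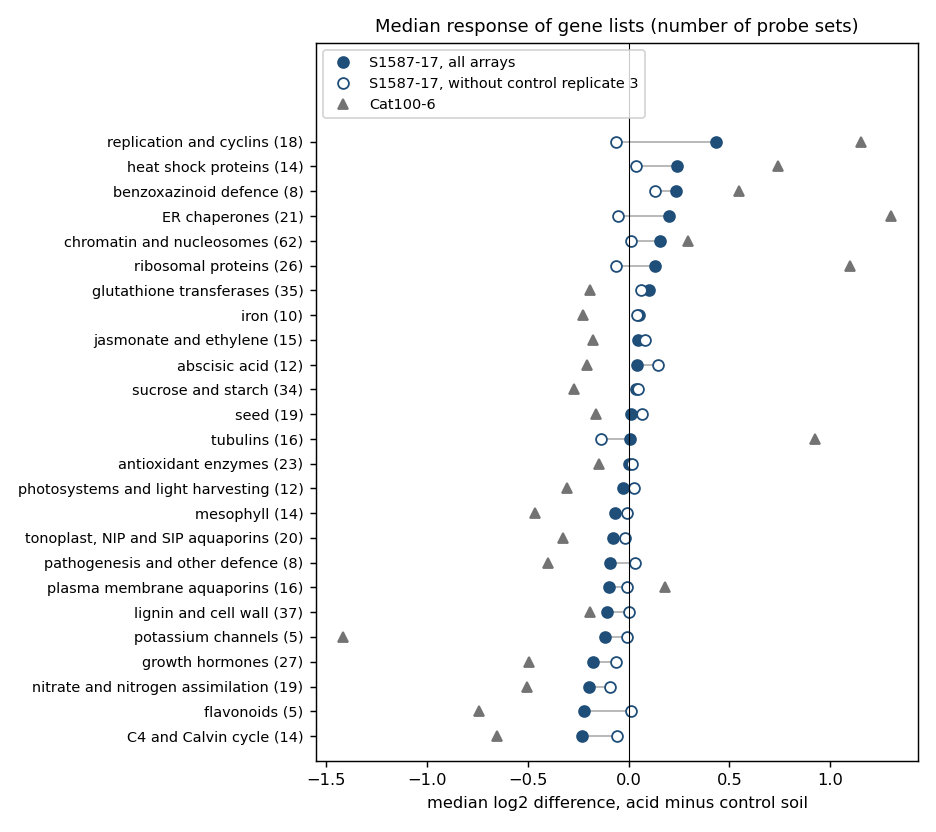
Median log2 difference, acid minus control soil (horizontal axis), of each gene list with at least 5 probe sets, for S1587-17 with all arrays (filled circles) and without control replicate 3 (open circles) and for Cat100-6 (triangles). The replication list goes from 0.43 to -0.06 without control replicate 3, and the open circles span -0.14 to 0.14.

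The response was compared with that of Cat100-6 by testing the difference of the 2 responses in the same limma fit. With all arrays 2588 probe sets (14.7%) passed, the S1587-17 response being the higher in 1044 (5.92%) and the lower in 1544 (8.76%). Without control replicate 3 of S1587-17, 7920 (44.9%) passed, 4293 (24.4%) higher and 3627 (20.6%) lower. In Cat100-6 itself 9697 probe sets (55%) changed between the soils. The count for the difference of responses therefore went from 2588 to 7920 when this 1 array was left out. Leaving out any other S1587-17 array gave 967 to 1158.

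Of the 70 genes named by rule, 18 passed this test with all arrays and 45 without control replicate 3. The small heat shock gene hsp18 fell by 1.06 log2 units in Cat100-6 acid soil (adjusted p = 0.00772), while its difference in S1587-17 was 0.61, and the responses differed by 1.67 ± 0.39 (limma, adjusted p = 0.0208). For Hb2 the fall in Cat100-6, -1.76, was larger than the S1587-17 difference of -0.81, and the responses differed by 0.96 ± 0.26 (limma, adjusted p = 0.0352). For tip2b the values were -1.90 and -0.80, with a difference of 1.10 ± 0.25 (limma, adjusted p = 0.0202). Cytokinin response regulator RR7 fell in Cat100-6 by 2.19 and the phosphate transporter pht1 by 1.76, and in S1587-17 the same genes gave -0.61 and -0.31, or -0.30 and -0.01 without control replicate 3. Without that array the responses differed by 1.77 ± 0.40 for hsp18, 1.18 ± 0.18 for Hb2, 1.26 ± 0.23 for tip2b, 1.89 ± 0.20 for RR7 and 1.75 ± 0.30 for pht1.

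In the opposite direction, the pathogenesis-related gene prp2 rose by 3.83 log2 units in Cat100-6 acid soil, while in S1587-17 it was at 12.45, 11.98 and 11.19 in control soil and at 12.34, 12.25 and 12.39 in acid soil. The chaperone genes crt2 and pdi rose by 2.92 and 3.02 in Cat100-6 and differed by 0.37 and 0.63 in S1587-17, or by 0.05 and 0.03 without control replicate 3. The dioxygenase bx6 rose by 1.22 in Cat100-6, and its response in S1587-17 was lower by 0.82 ± 0.22 (limma, adjusted p = 0.0322). For bx1 the rise in Cat100-6 was 1.28 and the responses differed by -0.54 ± 0.25 with all arrays (limma, adjusted p = 0.140) and by -0.79 ± 0.14 without control replicate 3 (adjusted p = 0.00127). The transferase gst11 rose by 2.09 in Cat100-6 and its responses differed by -1.57 ± 0.32 (limma, adjusted p = 0.0133). Without control replicate 3 the differences were -1.74 ± 0.30 for gst11 and -0.99 ± 0.17 for bx6.

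The genes phytase1 and gst5 gave a difference in S1587-17 that was near zero in Cat100-6. The difference of phytase1 was 0.73 in S1587-17 and -0.11 in Cat100-6. The responses differed by 0.83 ± 0.34 with all arrays (limma, adjusted p = 0.103) and by 1.01 ± 0.32 without control replicate 3 (adjusted p = 0.0231). For gst5 the values were 0.47 and 0.06, and the responses differed by 0.41 ± 0.17 (limma, adjusted p = 0.116), or by 0.49 ± 0.16 without control replicate 3 (adjusted p = 0.0315). In contrast, sum1, NIR and hsp18f differed between soils in Cat100-6 by -0.75, -0.59 and 0.61 (limma, adjusted p = 0.00302, 0.0405 and 0.00877). The directions were those of S1587-17. For sum1, NIR and hsp18f the responses of the lines differed by -0.06, -0.15 and -0.10 with standard errors of 0.23, 0.31 and 0.23, and none of these passed. NNR1 fell by 2.51 in Cat100-6, and its responses differed by 1.29 ± 0.57 (limma, adjusted p = 0.130), or by 1.76 ± 0.43 without control replicate 3 (adjusted p = 0.00665).

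**Figure D5:**
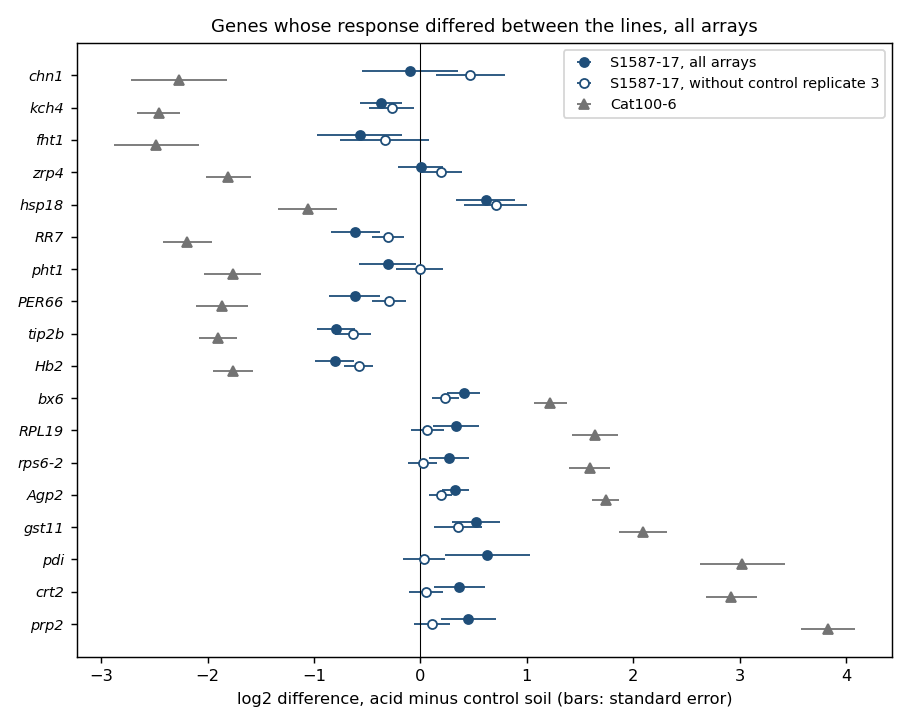
Log2 difference, acid minus control soil (horizontal axis, bars are standard errors), of the 18 named genes whose response differed between the lines with all arrays, for S1587-17 with all arrays (filled circles), without control replicate 3 (open circles) and for Cat100-6 (triangles). The S1587-17 values lie nearer zero than those of Cat100-6 in all 18 genes. The lines lie on opposite sides of zero in hsp18 and, by 0.00071 in S1587-17 with all arrays, in zrp4. Without control replicate 3, chn1 (0.47) and zrp4 (0.20) lie above zero, against -2.27 and -1.81 in Cat100-6.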

How the data were processed

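The deposited table holds log2 values that the authors made with RMA, per the submitters' processing notes. Which software and settings made them is not given in the sources used here. RMA values have no detection call, differences of dim probe sets are compressed, and the number of arrays limits the precision. The table has 17734 probe sets, of which 113 controls were left out. Exactly 1 gene symbol was given to 1452 probe sets, several to 1 and none to 16168, by the platform annotation. Symbols were updated through RefSeq (B73 NAM 5.0), where 1060 of 1108 genes were found. No sequence or coordinate was used. The sample descriptions read root leaves, taken as leaves, and source labels spell Cat100-6 as Ca100-6.

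Groups and replicate numbers came from titles. A mean per group was fitted to all 12 arrays with limma 3.58.1 in R 4.3.3 (8 residual degrees of freedom, 7 without S1587-17 control replicate 3), with Benjamini-Hochberg adjustment over all 17621 tested probe sets. Members and 29 gene lists were chosen with earlier results of these data known, so lists are described by counts and medians without a test. Lists were matched by symbol and synonym, without genes whose name showed another function. Named were the 10 genes of lowest p with and without control replicate 3, the 2 lowest in p of each list, the 6 highest and 6 lowest deviations of control replicate 3, and any gene that passed, each by its brightest probe set. This gave 70 of 976 readable names, of which not all are described. Of 18 other probe sets of named genes, 3 had the opposite sign. In simulated data with 50 probe sets changed at each size, the S1587-17 test recovered 22% of those changed by 0.5 log2 units, 74% by 1 and 98% by 2. Without control replicate 3 it recovered 8%, 68% and 96%. False calls numbered 6 with all arrays and 8 without it. Noise was drawn alike for every array from the spread within groups over all 12 arrays, control replicate 3 included. Neither recovery therefore describes the real data, where the spread differed between groups. The median standard deviation was 0.227 among the S1587-17 control arrays, 0.108 without control replicate 3, and 0.0964 among the acid arrays. Alternatives left out each array, the 40% dimmest probe sets or the other line, normalized again, weighted arrays, trended the variance or blocked on replicate number. Figures were drawn with matplotlib 3.10.9.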

Additional observations from a re-analysis of the deposited data

Results flagged for a closer look

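The responses of the 2 lines to acid soil differed in 18 named genes, of which 10 are compared above, each by the limma test of the difference itself over all arrays, given as the S1587-17 response minus the Cat100-6 response on the log2 scale. Together they belong to the 2588 probe sets that passed. The potassium channel gene kch4 differed by 2.09, the chitinase chn1 by 2.17, fht1 of flavonoid synthesis by 1.91, the root-preferential gene zrp4 by 1.81, hsp18 by 1.67, RR7 by 1.58, pht1 by 1.46, PER66 by 1.25, tip2b by 1.10 and Hb2 by 0.96. In the other direction prp2 differed by -3.38, crt2 by -2.56, pdi by -2.40, gst11 by -1.57, Agp2, a subunit of ADP-glucose pyrophosphorylase for starch, by -1.42, the ribosomal genes rps6-2 and RPL19 by -1.32 and -1.30, and bx6 by -0.82. Without S1587-17 control replicate 3 all 18 passed again.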

How the results depend on the processing

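The number of S1587-17 probe sets that passed, 0 with all arrays, was 0 to 1 with each array left out (1 without control replicate 2 or 3), 1 after scaling to the spiked hybridization controls, 2 with array weights and 0 with the replicate block, with or without control replicate 3. The estimation of the array weights stopped before it converged, so values with them are approximate. Chosen after seeing the data, median subtraction and spiked scaling without control replicate 3 gave 2 and 6, and a fit of only the S1587-17 arrays without it gave 0. Deviations of same-numbered arrays from their group means correlated at -0.12, 0.15 and -0.29. Control replicate 3 weighs on the mean of its group, so these values cannot show whether the numbers pair the samples. The line by soil count of 2588 was 967 to 7920 with an array left out, 7381 with array weights, 1193 with the replicate block, 7045 with that block without control replicate 3, 8674 and 4765 with median subtraction and spiked scaling without that array, and 1328 at 1 log2 unit or more. The count of probe sets apart, 1350, was 2148 to 4355 with an array left out, where fewer orderings are possible, 723 without the 40% dimmest and 2175 after spiked scaling. Of 376 list medians 374 moved by less than the larger SD of that median within a soil, which control replicate 3 widens, so the replication list counts as within it although it went from 0.43 to -0.06. Plasma membrane aquaporins had 0.03 in the block without control replicate 3, and tubulins -0.14 to 0.084 with an array left out, lowest without that one. Of 874 values of 59 named genes 27 had the opposite sign, none past the threshold, and the cause was not tested. With an array left out the range was -0.29 to 0.013 for pl1, -0.33 to 0.023 for psad1, -0.28 to 0.061 for psbs1 and -0.64 to 0.14 for rca1, above zero without control replicate 3, -0.016 to 0.36 for leg1, below zero without control replicate 1, and -0.16 to 0.20 for zrp4, below zero without control replicate 1 or 2 or acid replicate 2. Other values were, with array weights K2 (0.0047), pht1 (0.027), pl1 (0.0075), psad1 (0.0095), psbs1 (0.061) and rca1 (0.18). In the replicate block without control replicate 3 they were K2 (0.0022), MCM6 (-0.017), acco20 (0.071), cycD2 (-0.012), gpb1 (0.019), me3 (0.044), pht1 (0.029), psad1 (0.061), psbs1 (0.090), rca1 (0.22) and rps6-2 (-0.011). For zrp4 they were -0.023 after a second quantile normalization and -0.026 after median subtraction.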
